A study of Homo sapiens with 24 samples.

Results

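Gene expression in MCF-10A cells without a transgene was compared after 24 h and after 8 h of 4-hydroxytamoxifen (4-OHT), using the 6 libraries so labelled out of 24 in the series. MCF-10A is an immortalised, non-tumorigenic human mammary epithelial line. The cells were wild type (the parental line), grown as 3D cultures on Matrigel with reduced growth factors and treated with 1 µM 4-OHT, and each time had 3 replicates. All cultures were collected together on day 5, so the groups differ in the length of exposure and not in the age of the culture. The sources used here do not name the vehicle, and no culture received vehicle for 8 or 24 h in parallel, so hours of 4-OHT and hours since the addition cannot be told apart. For comparison, MCF-10A MYC-ER cells, in which MYC is joined to the ligand-binding domain of the oestrogen receptor, were treated in the same way, again with 3 replicates at 8 h and 3 at 24 h. The labels do not say whether replicates were separate cultures or whether the line with the fusion is 1 clone. The p-values therefore measure only the spread between libraries of a group, which was estimated over all 24 libraries of the series.

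4-OHT is the active metabolite of the antioestrogen tamoxifen. It binds oestrogen receptors, and in MYC-ER cells it releases the fusion protein to enter the nucleus. On Matrigel, MCF-10A cells form spheres in which the outer cells rest on basement membrane. Those outer cells attach through hemidesmosomes, junctions in which integrin α6β4 binds laminin-332 outside the cell and plectin and BPAG1 inside it, which in turn hold keratin filaments. Cells that leave the basal layer of a stratified epithelium lose these junctions and switch to other keratins, among them KRT10.

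The 6 libraries held 150930818 to 168327854 counts each, and the library most similar to each one belonged to its own group. The 10 genes listed for a mammary epithelial line, among them KRT5, KRT14 and CDH1, had counts in all 6 libraries and summed to 19570 to 23560 CPM (counts relative to library size, scaled for library composition). PTPRC, CD3E, CDH5, COL3A1 and ADIPOQ, which define leukocytes, T cells, endothelium, fibroblasts and adipocytes, had at most 2 counts in any of the 6 libraries. Other fibroblast markers were detected, with 8014 to 9797 counts of COL1A1, 8654 to 9536 of PDPN, 3371 to 4115 of DCN and 1142 to 1716 of FAP, and none of the 6 tested was called. Of the endothelial list, 3 of 8 genes were at 0 in all 6 libraries, and the sum was 1.60 to 1.78 CPM at 8 h and 2.32 to 2.96 CPM at 24 h, with KDR the 1 called member. Of the leukocyte list, 4 of 10 were at 0, and the sum was 35.7 to 40.1 CPM at 8 h and 44.1 to 46.6 CPM at 24 h, most of it CD68 and CSF1R. The part of these markers in the results was not tested. Fibroblast markers summed to 144 to 158 CPM over the 6 libraries and adipocyte markers to 2.15 to 3.18 CPM. MYC was at 471, 475 and 443 CPM at 8 h and at 511, 490 and 517 CPM at 24 h. The groups did not overlap, but the log2 change of 0.13 (SE 0.067, adjusted p = 0.232) did not pass the test, whereas with trends on transcript length and GC content removed it was 0.23 (adjusted p = 0.027). ESR1, which encodes oestrogen receptor α, was low but detected, with means of 0.232 CPM at 8 h and 0.240 CPM at 24 h. In the smallest of the 6 libraries, 3 counts correspond to 0.02 CPM.

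Between 8 and 24 h, parental cells raised some genes of the laminin and hemidesmosome system. Some genes of sterol and fatty acid synthesis and of the FOXO response rose as well. The keratins KRT10, KRT16 and KRT17 fell, as did some chaperones of the endoplasmic reticulum. Most changes were small. Of 22158 genes tested, 2424 (10.9%) passed the threshold of an adjusted p under 0.05 in edgeR's quasi-likelihood test, 1436 higher at 24 h (6.48%) and 988 lower (4.46%). The median size of a change among them was 0.34 on the log2 scale, and 110 genes (0.496%) differed at least 2-fold, 107 of them with under 10 CPM in both groups. Replicates did not overlap for 4285 genes that were above at 24 h (19.3%) and 4032 that were below (18.2%), or 37.5% of genes in either direction. The split between higher and lower calls depends on scaling, with 1220 higher and 1416 lower calls under upper-quartile scaling. Leaving out 8 h replicate 3 gave 1008 calls, and leaving out the variable parental 0 h libraries, which enter the estimate of spread and the filter on low counts (21955 genes tested without them), gave 5161.

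The direction of change followed transcript length. Among 9784 genes with at least 10 CPM, the Spearman correlation of the log2 change with the length of the longest annotated transcript was 0.56, and with GC content -0.42. These are descriptions across genes of the same 6 libraries, and genes are not independent replicates. In the bin of shortest transcripts, with a median of 1229 bases, the median log2 change was -0.14, and in the bin of longest transcripts, with a median of 9747 bases, it was 0.23. Long minus short genes stood at 0.15 to 0.28 log2 units in the 24 h libraries and at -0.12 to -0.03 in the 8 h libraries, without overlap. In MYC-ER cells the correlation with length over the same hours was 0.00. Whether this trend reflects the cells or the RNA and libraries was not tested. A fit in which each library's trends on GC content and length were removed, called the trend-corrected fit, is therefore given beside the list counts and beside any named gene whose call it ended. It kept 1057 of the higher and 666 of the lower calls and turned none to the opposite sign, and it called 1680 genes higher (7.58%) and 1157 lower (5.22%). List counts after correction are to be read beside these shares, and list counts of the main fit beside 6.48% higher and 4.46% lower.

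**Figure D1:**
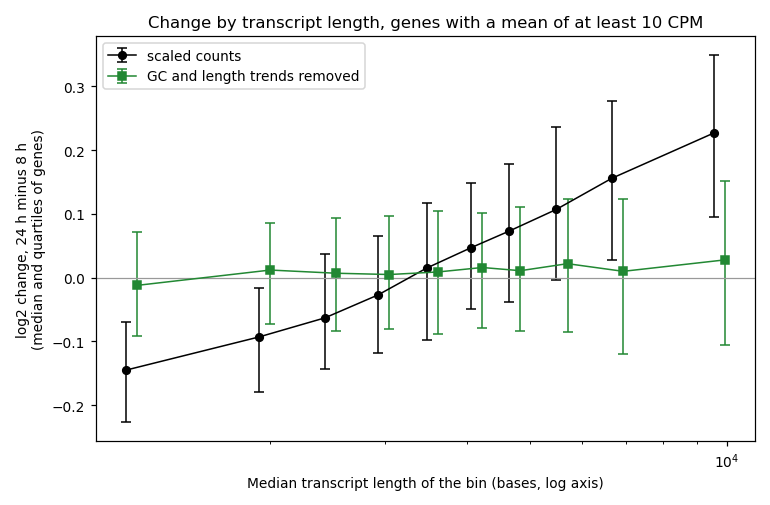
Median log2 change from 8 to 24 h (vertical axis, bars from the first to the third quartile of genes) against the median transcript length of 10 equal bins of genes (horizontal log axis). Black circles run from -0.14 in the shortest bin to 0.23 in the longest, and green squares, with trends on GC content and length removed, stay between -0.01 and 0.03.

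Part of the laminin-332 and hemidesmosome system rose from high levels. LAMA3 (chr18:23689443-23956222 on GRCh38) encodes the α3 chain of laminin-332 and stood at 893, 911 and 982 CPM at 8 h and at 1531, 1463 and 1627 CPM at 24 h. The 24 h libraries were all far above the 8 h libraries (log2 change 0.73, SE 0.065, adjusted p = 2.38e-06, or 0.58 in the trend-corrected fit). LAMB3 (chr1:209614870-209652466), the β3 chain, was at 1634, 1536 and 1741 CPM at 8 h and at 1678, 1588 and 1735 CPM at 24 h. Those groups overlapped, and the log2 change was 0.03 (SE 0.078, adjusted p = 0.882). The difference between these chains was not itself tested.

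DST, COL17A1 and both integrin chains rose as well, and PLEC was not called. DST, whose epithelial product is BPAG1, went from 734, 775 and 705 CPM to 1182, 1197 and 1248 CPM (log2 change 0.71, SE 0.099, adjusted p = 0.000209), and its log2 change was 0.46 in the trend-corrected fit. COL17A1, the transmembrane collagen of hemidesmosomes, went from 2154, 2146 and 2128 CPM to 2640, 2375 and 2843 CPM (log2 change 0.29, SE 0.063, adjusted p = 0.00594). ITGA6, the integrin α6 chain, went from 1248, 1310 and 1301 CPM to 1706, 1520 and 1777 CPM (log2 change 0.38, adjusted p = 0.0176). ITGB4, the β4 chain, went from 1448, 1495 and 1490 CPM to 1834, 1558 and 1966 CPM (log2 change 0.27, adjusted p = 0.0357). In these 3 genes the lowest 24 h library was replicate 2, and in none did the groups overlap. ITGA6 and ITGB4 are near the threshold: without 24 h replicate 3 the adjusted p was 0.0869 for ITGA6 and 0.188 for ITGB4, and ITGA6 also missed it without 24 h replicate 1 or 8 h replicates 1 or 3, and ITGB4 without any other single library but 24 h replicate 2. In the trend-corrected fit both passed (adjusted p = 0.0152 and 0.000844). ITGB4 missed the threshold under upper-quartile scaling (adjusted p = 0.06), without a filter on low counts (0.0607) and with the replicate number as a block (0.0526). With only the 6 libraries and the block together, ITGB4 was at 0.0674. PLEC, which encodes plectin, was at a mean of 2113 CPM at 8 h and 2161 CPM at 24 h (log2 change 0.03, adjusted p = 0.844).

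**Figure D2:**
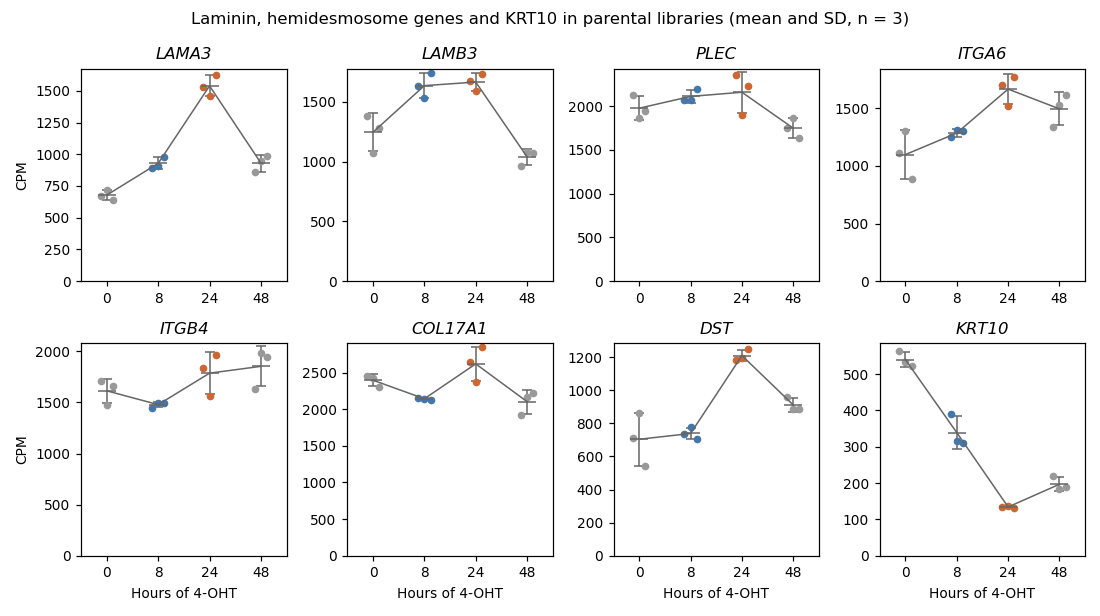
CPM (vertical axes from 0) in each parental library by hours of 4-OHT (horizontal axis, spaced by group), with the mean and SD of 3 replicates. Blue marks 8 h and orange 24 h, and grey marks the 0 and 48 h groups, which were not tested here. LAMA3 stands highest at 24 h, LAMB3 is level between 8 and 24 h, and KRT10 is lowest at 24 h.

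At 48 h LAMA3 had a mean of 931 CPM, beside an 8 h mean of 929 CPM, whereas DST was at 911 CPM and ITGA6 at 1496 CPM. Those levels are given as a description, as is the plot of CPM by hours of 4-OHT. Over the list of 17 basal epithelial genes, 8 rose and none fell, with a median log2 change of 0.29 against -0.01 over all genes tested. In the trend-corrected fit 12 rose (median 0.24), and leaving out single libraries gave 6 to 8 rises. Besides the genes above, TP73, a relative of the basal factor TP63, rose by 0.70 (adjusted p = 0.000902), and SAMD11 by 0.59 (adjusted p = 0.00857, or 0.0544 without 8 h replicate 3). TP63 itself was at 111, 118 and 110 CPM at 8 h and 138, 141 and 147 CPM at 24 h, without overlap (log2 change 0.33, adjusted p = 0.0503). The basal keratins KRT5 (log2 change -0.05, adjusted p = 0.721) and KRT14 (-0.25, adjusted p = 0.126) did not pass the test.

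Some other basement membrane genes were higher as well. Of 25 collagens and laminins tested, 7 rose and none fell (median log2 change 0.19), 6 in the trend-corrected fit. COL4A6, a chain of epithelial type IV collagen, rose from a mean of 127 to 167 CPM (log2 change 0.40, adjusted p = 0.00116), and LAMB1 from 224 to 279 CPM (0.32, adjusted p = 0.000902). COL4A5 rose by 0.41 (adjusted p = 0.011, and 0.0618 without 24 h replicate 3 or 0.0544 without 8 h replicate 1). The count of 7 fell to 2 without 24 h replicate 3, to 3 without 8 h replicate 1 and to 4 without 24 h replicate 1 or 8 h replicate 3, and it was 4 under upper-quartile scaling.

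The keratins KRT10, KRT16 and KRT17 moved the other way. KRT10 (chr17:40818117-40822595), a keratin of cells that have left the basal layer, was at 391, 315 and 311 CPM at 8 h and at 134, 136 and 133 CPM at 24 h. The 24 h libraries were tightly grouped and well below every 8 h library. Its log2 change of -1.34 (SE 0.097, adjusted p = 1.75e-07) was the largest fall among genes with at least 10 CPM. KRT16, a keratin of activated and hyperproliferative epithelium, was at 629, 621 and 638 CPM at 8 h and at 381, 356 and 405 CPM at 24 h (log2 change -0.72, SE 0.094, adjusted p = 0.000104). KRT17, which is induced in the same states, was at 3243, 3025 and 3442 CPM at 8 h and at 2308, 2084 and 2389 CPM at 24 h (log2 change -0.52, adjusted p = 0.00678). Neither pair of groups overlapped. CALML3, a calmodulin-like protein of epithelia, fell from 6.05, 5.47 and 6.40 CPM to 2.77, 2.40 and 3.20 CPM (log2 change -1.10, adjusted p = 9.19e-05).

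KRT16, KRT17, KRT6A and KRT6B have close paralogues and pseudogenes, and how reads shared among them were counted is not given in the sources used here. KRT6A, the most abundant of the 4, was at 9472, 9617 and 9704 CPM at 8 h and 8798, 8018 and 9275 CPM at 24 h (log2 change -0.14, adjusted p = 0.223). KRT6B was called lower (log2 change -0.289, adjusted p = 0.0427) but not in the trend-corrected fit (-0.165, adjusted p = 0.135). It also missed the threshold when any single library other than 24 h replicate 3 was left out. Of 34 suprabasal and cornified envelope genes tested, 7 fell and none rose, but their median log2 change was -0.01, the same as over all genes tested. The trend-corrected fit called 6 lower and 5 higher, with a median of 0.18, so the sign of the list's median depended on the correction. IVL, which encodes the envelope protein involucrin, was at 7.30, 10.2 and 11.4 CPM at 8 h and 11.7, 13.9 and 18.5 CPM at 24 h, without overlap (log2 change 0.60, adjusted p = 0.154, or 0.75 and 0.0435 after correction). Without 8 h replicate 3 or 24 h replicate 1 the number of falls was 4.

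**Figure D3:**
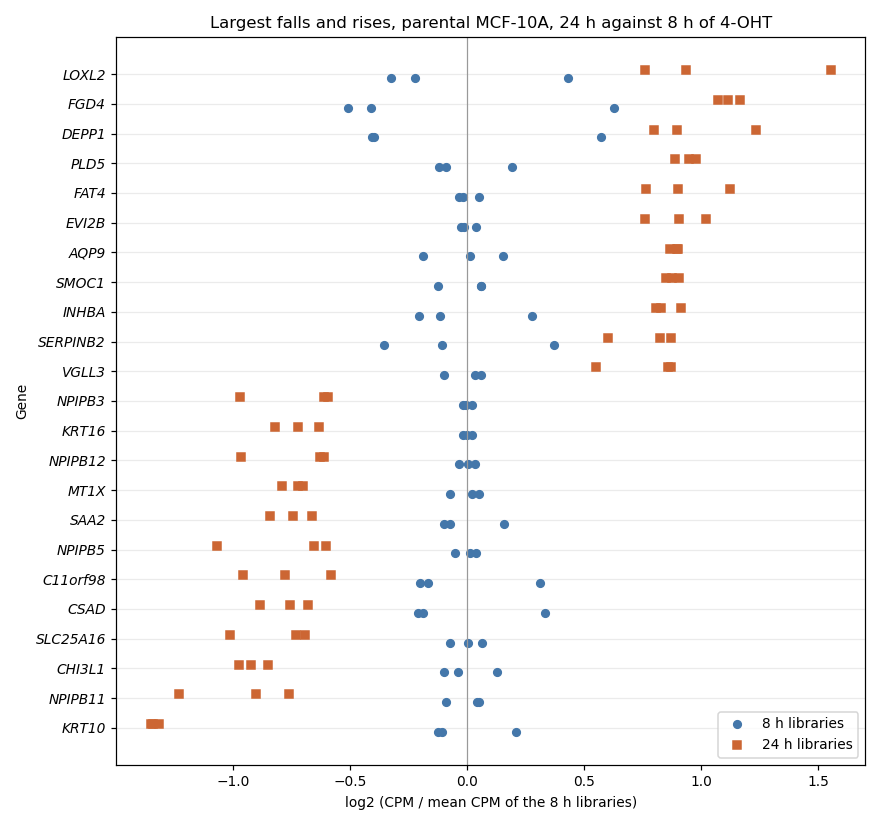
Each library's CPM relative to the mean of the 8 h libraries (horizontal axis, log2), for the 12 largest falls and 11 of the largest rises among named genes with at least 10 CPM. Blue circles are 8 h libraries and orange squares 24 h libraries. No gene shown has overlapping groups, and the 8 h libraries of LOXL2, FGD4 and DEPP1 spread more widely than those of KRT10 or SMOC1.

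Among the other large rises, several genes act on the matrix or at the cell surface. LOXL2, a lysyl oxidase that crosslinks collagen, was at 4.41, 4.73 and 7.44 CPM at 8 h and at 10.6, 9.34 and 16.2 CPM at 24 h (log2 change 1.12, SE 0.23, adjusted p = 0.00352). SMOC1, a secreted basement membrane protein, went from 14.8, 16.9 and 16.8 CPM to 29.1, 29.6 and 30.3 CPM (log2 change 0.88, SE 0.093, adjusted p = 1.5e-05). FAT4, a giant protocadherin, went from 9.42, 9.87 and 9.31 CPM to 17.8, 16.2 and 20.8 CPM (log2 change 0.94, adjusted p = 0.000841). AQP9, a channel for water and glycerol, rose from 8.08, 6.38 and 7.33 CPM to 13.5, 13.6 and 13.2 CPM (log2 change 0.89, adjusted p = 5.42e-06). PLD5, a member of the phospholipase D family, rose by 0.94 (adjusted p = 1.5e-05). These 5 genes kept their calls without any single library of the 2 groups and in the trend-corrected fit.

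Other rises lost their calls when single libraries were left out. FGD4, which activates the GTPase CDC42, was at 13.5, 14.5 and 29.7 CPM at 8 h and at 43.1, 40.3 and 41.6 CPM at 24 h (log2 change 1.12, SE 0.27, adjusted p = 0.011). The high value in 8 h replicate 3 widens its spread, and the adjusted p was 0.0694 without 8 h replicate 1 and 0.058 without 8 h replicate 2. VGLL3, a cofactor of TEAD factors, rose by 0.77 (adjusted p = 0.0131), with 0.0574 without 24 h replicate 3 and 0.0661 without 8 h replicate 3. EVI2B, which lies within an intron of NF1 on the opposite strand, went from 7.91, 8.19 and 7.82 CPM to 13.5, 16.2 and 14.9 CPM (log2 change 0.90, adjusted p = 0.0367). Its adjusted p was 0.0694 to 0.117 when any of the 6 libraries was left out. The libraries were stranded, but whether the counting used strand is not given in the sources used here.

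Of the remaining large falls, CHI3L1, a secreted chitinase-like protein, went from 19.8, 16.9 and 17.6 CPM at 8 h to 9.18, 10.02 and 9.53 CPM at 24 h (log2 change -0.92, SE 0.10, adjusted p = 2.28e-05). MT1X, a metallothionein that binds zinc and copper, went from 89.0, 83.3 and 90.8 CPM to 53.2, 50.7 and 53.9 CPM (log2 change -0.74, adjusted p = 3.06e-05). SAA2, an acute-phase protein, went from 21.6, 18.1 and 18.4 CPM to 12.2, 10.8 and 11.6 CPM (log2 change -0.75, adjusted p = 0.00055). MT1X and SAA2 each have near-identical neighbours, so their shares of reads are uncertain. SLC25A16, a mitochondrial carrier, fell by 0.81 on the log2 scale (adjusted p = 0.00162). CSAD, an enzyme of taurine synthesis, had a log2 change of -0.77 (adjusted p = 0.0143, and 0.108 without 8 h replicate 1 or 0.069 without 24 h replicate 3), and C11orf98 of -0.76 (adjusted p = 0.0117, and 0.0806 without 8 h replicate 1 or 0.0621 without 24 h replicate 1). NPIPB3, NPIPB5, NPIPB11 and NPIPB12 complete the 12 falls, at -0.72 to -0.95. They are near-identical copies on chromosome 16 and cannot be counted as separate observations, and NPIPB3 missed the threshold in the trend-corrected fit (adjusted p = 0.0574).

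Some secreted regulators of proteolysis were called from low levels. SERPINB2, an inhibitor of plasminogen activators, was at 6.18, 5.21 and 8.61 CPM at 8 h and at 11.8, 12.2 and 10.1 CPM at 24 h (log2 change 0.77, SE 0.21, adjusted p = 0.0239). Its adjusted p was 0.0698 to 0.11 without 24 h replicates 1 or 2 or 8 h replicates 1 or 2. TFPI2, an inhibitor of plasmin, was at 4.22, 5.19 and 4.97 CPM at 8 h and at 9.27, 8.23 and 10.3 CPM at 24 h (log2 change 0.95, SE 0.14, adjusted p = 0.000311). MMP10, the metalloproteinase stromelysin-2, was at 4.55, 4.62 and 7.23 CPM at 8 h and at 8.28, 9.64 and 8.84 CPM at 24 h (log2 change 0.71, adjusted p = 0.0119, with 0.0666 without 8 h replicate 1 and 0.0617 without 8 h replicate 2). None of the 3 had overlapping groups. The plasminogen activator PLAU (log2 change -0.13, adjusted p = 0.287) and its receptor PLAUR (-0.17, adjusted p = 0.267) did not pass the test. Of 12 genes of the plasminogen system 4 rose and none fell (median log2 change 0.05), and 3 rose and 1 fell after correction. The rises numbered 1 without 24 h replicate 2 or 8 h replicate 2, and 2 without 24 h replicates 1 or 3 or 8 h replicate 1. Of 15 metalloproteinases and inhibitors, MMP10 rose and MMP7 fell, shares of 6.67% each, near the 6.48% and 4.46% of all genes tested. After correction 5 rose and 1 fell. MMP7, the metalloproteinase matrilysin, had means of 0.849 CPM at 8 h and 0.491 CPM at 24 h (log2 change -0.79, adjusted p = 0.00675, or 0.0519 without 8 h replicate 1).

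LAMA3, SERPINB2, TFPI2 and MMP10 were searched for TGANTCA, a sequence pattern that the comparison did not use. With any base at N, it is looser than the AP-1 consensus TGA(C/G)TCA. For each, the 250 bases before a RefSeq start (GRCh38.p14) are shown with matches in capitals. Only windows with a match were kept for printing, so a match in each window shown was fixed by that rule. LAMA3 holds the consensus forms TGACTCA and TGAGTCA, whereas SERPINB2, TFPI2 and MMP10 hold TGAATCA, which is off the consensus. The pattern reads the same on both strands, but TGAATCA does not. For LAMA3 and SERPINB2 the RefSeq start lies inside the GENCODE gene, so the window is at an internal start, and gene counts do not separate transcripts. The genes and the pattern were chosen after the values of the genes had been seen. Sequences read 5′ to 3′ on the strand of the gene, with the windows at chr18:23872770-23873019 on the plus strand for LAMA3, chr18:63887455-63887704 on the plus strand for SERPINB2, chr7:93890754-93891003 on the minus strand for TFPI2 and chr11:102780629-102780878 on the minus strand for MMP10.
LAMA3: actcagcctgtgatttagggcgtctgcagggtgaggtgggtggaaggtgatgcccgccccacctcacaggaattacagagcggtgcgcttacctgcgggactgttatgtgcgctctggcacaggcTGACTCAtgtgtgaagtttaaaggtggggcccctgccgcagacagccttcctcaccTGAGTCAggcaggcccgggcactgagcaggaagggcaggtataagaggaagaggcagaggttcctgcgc
SERPINB2: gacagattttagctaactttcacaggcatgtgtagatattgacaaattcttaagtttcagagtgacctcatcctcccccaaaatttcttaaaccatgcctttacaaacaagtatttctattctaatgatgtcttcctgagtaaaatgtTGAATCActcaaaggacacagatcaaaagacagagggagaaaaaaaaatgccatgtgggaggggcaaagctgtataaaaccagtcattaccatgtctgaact
TFPI2: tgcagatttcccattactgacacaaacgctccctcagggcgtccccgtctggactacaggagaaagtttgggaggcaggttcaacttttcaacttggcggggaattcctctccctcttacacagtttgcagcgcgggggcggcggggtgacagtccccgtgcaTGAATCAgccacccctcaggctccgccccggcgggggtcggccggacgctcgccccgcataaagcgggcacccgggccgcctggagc
MMP10: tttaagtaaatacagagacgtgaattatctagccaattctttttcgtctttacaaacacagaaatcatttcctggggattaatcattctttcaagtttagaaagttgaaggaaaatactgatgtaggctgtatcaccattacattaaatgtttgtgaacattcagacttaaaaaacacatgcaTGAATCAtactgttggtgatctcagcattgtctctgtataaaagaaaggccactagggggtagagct
LAMA3 holds 2 matches and the others 1 each. The pattern, with any base at N, occurs in 6.57% of 35116 RefSeq windows of this length. Counted by gene, with a match in any window, it occurs for 8.06% of 27305 genes with an entry and 6.92% of 13236 genes tested. Among genes with an entry, it was found for 1 of 8 of the largest rises and 0 of 7 of the 12 largest falls. It was found for 5 of 9 genes of the plasminogen list and 2 of 6 of the metalloproteinase list. A match describes the letters of the window only. Whether AP-1 factors act at these windows was not tested. Of 17 AP-1 and early growth response genes, 4 fell and 1 rose (median log2 change -0.15). The falls included FOSL1 (-0.31, adjusted p = 0.0129), JUNB (-0.29, adjusted p = 0.014) and EGR1 (-0.27, adjusted p = 0.0083). None of these 3 passed in the trend-corrected fit (adjusted p = 0.328, 0.37 and 0.0727), where 1 gene of the list fell and 3 rose. Without 8 h replicate 1 the adjusted p was 0.0665, 0.0523 and 0.0547, and without 8 h replicate 3 it was 0.0732 for FOSL1 and 0.069 for JUNB. FOSL1 also missed the threshold without 24 h replicates 1 or 3 and JUNB without 24 h replicate 2. The falls in the list numbered 1 without 8 h replicates 1 or 3 and 2 without 24 h replicate 2.

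Growth factor and TGF-β genes gave a few distinct changes. INHBA, whose product forms activin A, was at 14.8, 15.8 and 20.7 CPM at 8 h and at 32.2, 29.9 and 30.4 CPM at 24 h, with no overlap. The log2 change was 0.85 (SE 0.16, adjusted p = 0.00169), and the mean was 4.93 CPM at 0 h and 18.1 CPM at 48 h. TGFBR2, the type II TGF-β receptor, rose from 134, 135 and 132 CPM to 169, 167 and 178 CPM (log2 change 0.36, adjusted p = 0.0022). The activin antagonist FST (-0.03) and the feedback inhibitor SMAD7 (-0.04) had adjusted p of 0.974 and 0.823. Of 23 genes of the pathway, 4 rose and none fell, with a median of 0.00, 3 rose after correction, and 2 rose without any single library other than 24 h replicate 2. Of the EGF family, the ligand HBEGF fell from 46.3, 43.2 and 49.2 CPM to 33.6, 35.0 and 29.5 CPM (log2 change -0.50, adjusted p = 0.00279), while the receptor ERBB3 rose from 6.62 to 9.28 CPM on average (0.49, adjusted p = 0.00253). Of 15 EGF receptors, ligands and regulators, 4 rose and 1 fell, as after correction, and without 8 h replicate 3 only 1 rose, with 2 rises without 24 h replicates 1 or 3 or 8 h replicates 1 or 2. VIM, the mesenchymal filament protein that MCF-10A cells also express, rose from 214, 236 and 255 CPM to 336, 311 and 398 CPM (log2 change 0.57, adjusted p = 0.00394).

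YAP and TAZ are cofactors that respond to adhesion and cell shape. Of 16 of their targets tested, 8 rose and 1 fell (median log2 change 0.26), and 6 rose and 1 fell in the trend-corrected fit. AMOTL2, a feedback inhibitor of YAP, rose from 25.9, 26.8 and 25.4 CPM to 37.9, 33.4 and 39.9 CPM (log2 change 0.51, adjusted p = 0.000212), and the receptor kinase AXL from 22.8, 22.6 and 21.5 CPM to 30.0, 26.6 and 36.9 CPM (0.48, adjusted p = 0.00217). PTPN14, which holds YAP in the cytoplasm, rose by 0.47 (adjusted p = 0.00949, and 0.0521 without 8 h replicate 3). CCN2, a widely used target, was at 0.834 to 1.54 CPM in all 6 libraries (log2 change 0.15, adjusted p = 0.758). The 8 rises became 3 without 8 h replicate 3, 4 without 24 h replicate 1 or 8 h replicate 2 and 5 without 24 h replicate 3.

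Genes of sterol synthesis were higher at 24 h. Cells make cholesterol from acetyl-CoA through mevalonate, and SREBP factors raise these enzymes when sterol in the endoplasmic reticulum is low. Of 24 genes tested, 12 rose and none fell, with a median log2 change of 0.20, and 19 rose with a median of 0.21 in the trend-corrected fit. LSS, the lanosterol synthase, rose from 207, 227 and 208 CPM at 8 h to 308, 272 and 316 CPM at 24 h (log2 change 0.48, SE 0.058, adjusted p = 4.4e-05). ACAT2, which starts the pathway, rose from 121, 125 and 125 CPM to 160, 168 and 161 CPM (log2 change 0.40, SE 0.068, adjusted p = 0.000925). INSIG1, the sterol-regulated brake on SREBP processing, rose from 87.4, 91.8 and 92.3 CPM to 119, 106 and 119 CPM (log2 change 0.34, adjusted p = 0.00162). In all 3 the groups stood apart, with 24 h replicate 2 lowest for LSS and INSIG1.

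Not every gene of the list was called. SQLE (0.14, adjusted p = 0.0786) and HMGCS1 (0.15, adjusted p = 0.163) did not pass the test, although no 24 h library overlapped the 8 h libraries. The number of rises was 6 without 24 h replicate 3 or 8 h replicate 2 and 8 without 8 h replicate 3. ABCA1, which exports cholesterol and answers to LXR, was at 0.0926 to 0.241 CPM in all 6 libraries. Of 9 LXR targets 1 fell (11.1%, against 4.46% of all genes tested) and none rose, as after correction. None fell without 24 h replicate 2 or 8 h replicates 1 or 2.

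Fatty acid synthesis, which SREBP factors also drive, followed the same direction. Of 13 genes, 6 rose and none fell, with a median log2 change of 0.23 and 5 to 7 rises without single libraries, and 6 rose and 1 fell after correction. ACLY, which supplies cytosolic acetyl-CoA from citrate, rose from 446, 461 and 437 CPM to 604, 565 and 652 CPM (log2 change 0.44, SE 0.072, adjusted p = 0.00079), and ACSS2, which makes it from acetate, from 94.6, 104 and 93.0 CPM to 125, 127 and 131 CPM (0.40, adjusted p = 0.000525). LPIN1, a phosphatidate phosphatase, rose by 0.48 (adjusted p = 0.00227) and the desaturase FADS2 by 0.35 (adjusted p = 0.00609). FASN, the fatty acid synthase, was called higher at 0.31 (adjusted p = 0.028), but 24 h replicate 2 at 1194 CPM lay within the 8 h range of 1098 to 1210 CPM. It missed the threshold without 24 h replicates 1 or 3 or 8 h replicates 1 or 3 (adjusted p up to 0.148 without 24 h replicate 3).

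Many genes of the FOXO response were higher at 24 h. FOXO factors act when insulin and PI3K signalling is low and raise genes of metabolic restraint and cell-cycle exit. Of 21 tested, 10 rose and none fell (median log2 change 0.23), and 11 rose and 1 fell in the trend-corrected fit. DEPP1, an autophagy regulator, was at 6.60, 6.63 and 13.0 CPM at 8 h and at 15.2, 16.3 and 20.6 CPM at 24 h (log2 change 0.99, adjusted p = 0.009). It lost the call narrowly without 24 h replicate 3 (0.0547), 8 h replicate 1 (0.0559) or 8 h replicate 2 (0.0516). PDK4, which restrains pyruvate dehydrogenase, rose from 5.64, 6.24 and 5.39 CPM to 9.64, 8.66 and 8.50 CPM (log2 change 0.63, adjusted p = 0.000382). CITED2 (0.48, adjusted p = 0.000828), CCNG2 (0.44, adjusted p = 0.00645) and TXNIP (0.23, adjusted p = 0.00658) rose as well. The number of rises was 5 without 8 h replicate 1 and 6 without 24 h replicates 1 or 3 or 8 h replicate 3.

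Some chaperones of the endoplasmic reticulum fell. In the unfolded protein response, misfolded protein frees ATF6 and activates XBP1, which raise these chaperones. Of 21 genes tested, 7 fell and 1 rose (median log2 change -0.17), and 8 fell and none rose in the trend-corrected fit. HSPA5, the chaperone BiP, went from 921, 827 and 889 CPM at 8 h to 733, 725 and 730 CPM at 24 h (log2 change -0.27, SE 0.058, adjusted p = 0.00585). CRELD2, a marker of this stress, went from 47.0, 46.2 and 49.9 CPM to 33.2, 31.9 and 33.6 CPM (log2 change -0.54, SE 0.064, adjusted p = 4.32e-05). SDF2L1 (-0.53, adjusted p = 0.00717), DNAJB11 (-0.29, adjusted p = 0.00116) and XBP1 (-0.24, adjusted p = 0.00095) fell too, and each kept its call without any single library. The 1 rise was ATF6 (0.24, adjusted p = 0.00594), a long transcript that had adjusted p = 0.76 after correction. Without single libraries 5 to 7 genes fell.

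Heat shock and oxidative stress genes held further falls. Of 14 heat shock genes 4 fell and none rose (median -0.11), and HSPB1, a small heat shock protein, went from 707, 655 and 756 CPM to 477, 495 and 458 CPM (log2 change -0.57, adjusted p = 0.00277). HSPA1A, whose neighbour HSPA1B is near-identical, had a log2 change of -0.29 (adjusted p = 0.024) and was not past the threshold in the trend-corrected fit (adjusted p = 0.0939) or without 24 h replicate 2 (0.114), 8 h replicate 1 (0.0979) or 8 h replicate 3 (0.0592). Only 1 heat shock gene was called without 8 h replicate 1 or 8 h replicate 3, 2 without 24 h replicate 1 or 8 h replicate 2, and 2 after correction. Of 23 NRF2 targets 7 fell and none rose (median -0.02), against 4 falls without any single library and 5 falls and 1 rise after correction. ALDH3A1, an aldehyde dehydrogenase also driven by the aryl hydrocarbon receptor, went from 20.3, 16.6 and 18.7 CPM to 11.5, 11.2 and 12.5 CPM (log2 change -0.66, adjusted p = 0.000388), and the quinone reductase NQO1 fell from a mean of 258 to 215 CPM (-0.26, adjusted p = 0.00854). CYP1A1, the usual readout of the aryl hydrocarbon receptor, was under 1 CPM in all 6 libraries (adjusted p = 0.515). Of 7 targets of that receptor, 1 rose (14.3%) and 2 fell (28.6%), against 6.48% and 4.46% of all genes tested. The counts were the same after correction, and 0 rose and 2 fell when any single library was left out.

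**Figure D4:**
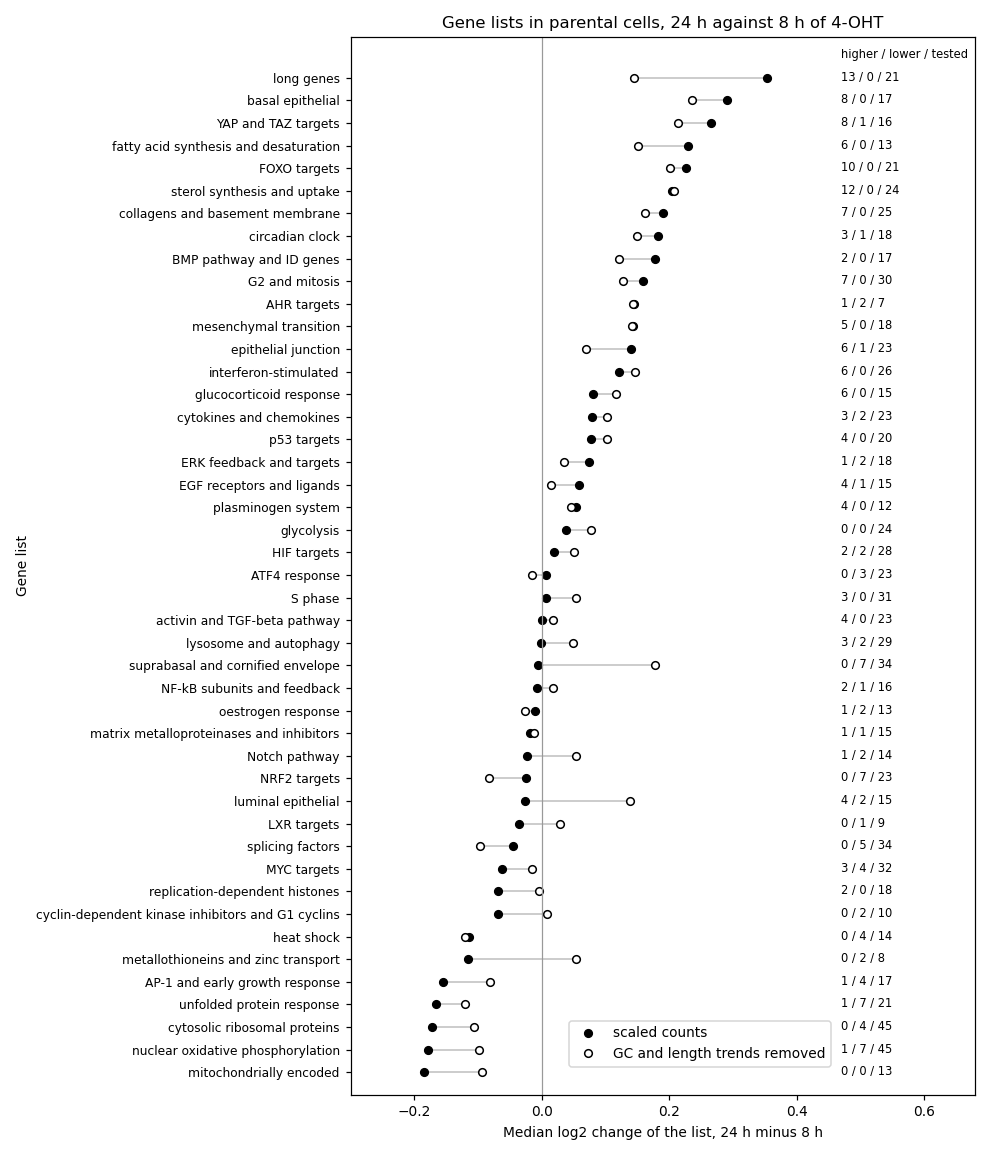
Median log2 change from 8 to 24 h (horizontal axis) of each gene list (vertical axis), with filled circles for scaled counts and open circles for the trend-corrected fit. The numbers at the right give genes higher, lower and tested. Basal epithelial, YAP and TAZ, fatty acid, FOXO and sterol lists lie at 0.20 to 0.29 and the unfolded protein response at -0.17, and the list of very long genes moves from 0.35 to 0.14 on correction.

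Few short transcripts of the ribosome and the respiratory chain passed the test. Of 45 cytosolic ribosomal protein genes, 28 (62.2%) had all 24 h libraries below all 8 h libraries, against 18.2% of all genes tested. None had them all above, against 19.3%. By the test 4 fell (8.89%, against 4.46% of all genes tested, median log2 change -0.17), and 3 after correction (median -0.11). Of 45 nuclear genes of oxidative phosphorylation 7 fell and 1 rose (median -0.18), and 6 fell and 1 rose after correction (median -0.10). These counts depended on the spread assumed. Without the parental 0 h group there were 27 and 28 falls. When any single library was left out, 0 or 1 ribosomal protein gene fell, and 0 or 1 gene of oxidative phosphorylation, except for 8 without 24 h replicate 2. The 13 mitochondrially encoded genes gave no call, with mitochondrial shares of counts of 5.51 to 7.07% at 24 h and 6.50 to 7.73% at 8 h. No gene of glycolysis was called by edgeR of 24 tested, and 4 rose and 2 fell after correction. At the other end, 13 of 21 genes chosen for great length rose, among them SYNE2, a nuclear envelope protein, from 109, 122 and 106 CPM to 183, 174 and 199 CPM (log2 change 0.72, or 0.48 after correction, adjusted p = 2.18e-05 and 5.64e-05), and 8 of the 21 rose after correction.

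Among cell-cycle genes, a small part of the mitotic list was higher. In a bulk library, a change in the share of dividing cells and a change in RNA per cell cannot be told apart. Of 30 genes of G2 and mitosis, 7 rose and none fell (median log2 change 0.16), and 5 rose after correction. TOP2A, the topoisomerase of dividing cells, went from 189, 179 and 173 CPM to 241, 253 and 252 CPM (log2 change 0.46, adjusted p = 0.00573), and the proliferation marker MKI67 from 248, 255 and 232 CPM to 311, 313 and 328 CPM (0.37, adjusted p = 0.00285). CENPF, a kinetochore protein with a long transcript, was called at 0.33 (adjusted p = 0.0237) but not after correction (adjusted p = 0.407), nor without 24 h replicate 3 (adjusted p = 0.106), 24 h replicate 1 (0.0755), 8 h replicate 1 (0.068) or 8 h replicate 3 (0.0999). The count of 7 was 3 without 8 h replicate 3 and 4 without 24 h replicate 1. Of 31 S-phase genes 3 rose (9.68%, against 6.48% of all genes tested) and none fell. Their median of 0.01 turned to -0.03 under upper-quartile scaling, and 4 rose after correction. None rose without 8 h replicates 1 or 3, 1 without 24 h replicate 3 and 2 without any other single library. Of 32 MYC targets 3 rose (9.38%) and 4 fell (12.5%), against 6.48% and 4.46% of all genes tested, and 4 rose and 2 fell after correction. None rose without 24 h replicates 1 or 3 or 8 h replicate 3, 1 rose without 8 h replicates 1 or 2 and 2 without 24 h replicate 2, with 2 or 3 falls each time.

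Interferon-stimulated and glucocorticoid-responsive genes each had 6 rises and no fall, among 26 and 15 tested (medians 0.12 and 0.08). After correction 6 interferon genes rose, and 7 glucocorticoid genes rose and 1 fell. OAS3, an antiviral synthetase, rose from 154, 159 and 153 CPM to 221, 209 and 237 CPM (log2 change 0.52, adjusted p = 0.000177), and RIGI, a sensor of viral RNA, from 10.6, 10.4 and 9.67 CPM to 13.4, 13.8 and 13.1 CPM (0.39, adjusted p = 0.00154). TSC22D3, the glucocorticoid-induced leucine zipper protein, rose from 56.9, 59.9 and 51.6 CPM to 70.8, 77.4 and 75.0 CPM (0.41, adjusted p = 0.00146). The interferon count was 3 without 24 h replicate 3 or 8 h replicate 1. The glucocorticoid count was 1 without 24 h replicate 3 or 8 h replicate 3, 2 without 24 h replicate 1 or 8 h replicate 1 and 3 without 8 h replicate 2. The clock gene NR1D2 rose from 5.69, 5.96 and 5.82 CPM to 9.79, 8.62 and 10.1 CPM (log2 change 0.70, adjusted p = 0.00433), and BMAL1 by 0.28 (adjusted p = 0.00502). Among 18 circadian clock genes tested, 3 rose, 1 fell and 14 were not called, and 5 rose and 2 fell after correction. Of 13 oestrogen-response genes, 1 rose (7.69%) and 2 fell (15.4%), against 6.48% and 4.46% of all genes tested (median -0.01), and 2 rose and 2 fell after correction. The falls numbered 1 without 24 h replicates 1 or 2 or 8 h replicate 3.

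The same hours were then compared with those in MYC-ER cells, to ask which parental changes also occur when 4-OHT acts through the fusion. The 4 groups share no library. The 24 h against 8 h change differed between the lines for 10179 of 22158 genes (45.9%), with the MYC-ER change above the parental one for 5020 (22.7%) and below it for 5159 (23.3%). Scaled by library size alone, which moves the median difference over all genes from 0.06 to 0.27, the split was 6971 to 3356, so small differences have no fixed sign. MYC-ER cells on their own had 12296 calls (55.5%). Of 23 of the largest parental changes, 21 differed between the lines. SLC25A16 (difference 0.24, adjusted p = 0.363) and C11orf98 (-0.58, adjusted p = 0.0793) did not pass that test, and NPIPB5 lost the call without parental 24 h replicate 3 (0.0673), MYC-ER 24 h replicate 2 (0.0602) or MYC-ER 8 h replicate 1 (0.0585). NPIPB3 lost it in the trend-corrected fit (0.0677).

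Most laminin and hemidesmosome genes went in opposite directions. LAMA3 changed by -0.98 in MYC-ER cells against 0.73 in parental cells, a difference of -1.71 (adjusted p = 1.96e-12). LAMB3 changed by -1.78 against 0.03 (difference -1.80, adjusted p = 1.8e-11). ITGA6 (-1.70), ITGB4 (-0.69) and COL17A1 (-0.71) also differed. DST was the exception, with a greater rise in MYC-ER cells (1.79 against 0.71, difference 1.08, adjusted p = 1.49e-06). INHBA, which rose in parental cells, changed by -3.17 in MYC-ER cells (difference -4.02, adjusted p = 4.75e-12), and DEPP1 by -2.99 (difference -3.98, adjusted p = 2.28e-09). KRT10 (-3.64 against -1.34) and KRT16 (-3.13 against -0.72) fell in both lines and further in MYC-ER cells, with differences of -2.30 and -2.40. VGLL3 and FAT4 rose in both, by 1.86 and 1.71 in MYC-ER cells. LOXL2 and FGD4 differed by -0.81 (adjusted p = 0.0375) and -1.02 (adjusted p = 0.0303), calls that were lost without 8 h replicates 1 or 2 of the parental line (0.097 and 0.0938 for LOXL2, 0.0904 and 0.0863 for FGD4). LOXL2 also lost it without parental 24 h replicate 3 (0.156), and FGD4 without parental 24 h replicate 1 (0.0535). Leaving out single MYC-ER libraries, either of 2 other scalings and, for FGD4, the trend correction also ended these calls.

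**Figure D5:**
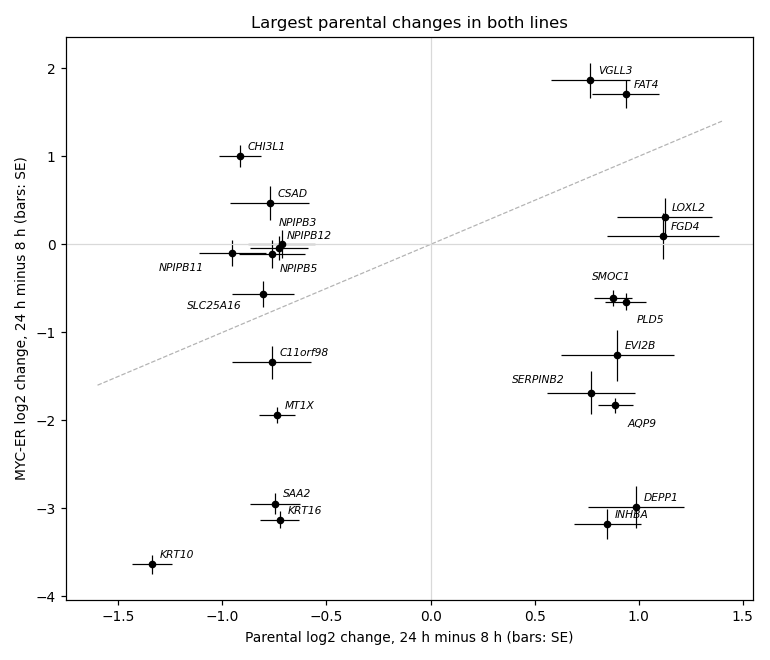
Log2 change from 8 to 24 h in parental cells (horizontal axis) and in MYC-ER cells (vertical axis) for 23 of the largest parental changes, with bars for the standard error and a dashed line of equal change. VGLL3 and FAT4 rise in both lines, KRT10, KRT16, SAA2 and MT1X fall in both, and INHBA, DEPP1, AQP9 and SERPINB2 rise in parental cells and fall in MYC-ER cells.

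Several lipid genes did not show such a difference. LSS changed by 0.55 in MYC-ER cells and 0.48 in parental cells (difference 0.07, adjusted p = 0.505), ACLY by 0.50 and 0.44 (difference 0.06, adjusted p = 0.656) and ACSS2 by 0.41 and 0.40 (difference 0.01, adjusted p = 0.969). A p above the threshold does not show that the changes were equal. In all, 14 of 24 sterol genes differed between the lines, 7 in each direction. All 30 genes of G2 and mitosis had a greater rise in MYC-ER cells, where their median log2 change was 4.64 against 0.16 in parental cells.

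The largest differences were in genes that moved little in parental cells. PIF1, a DNA helicase, was at 19.5 to 21.8 CPM at 8 h and 18.3, 19.0 and 15.5 CPM at 24 h in parental cells, and in MYC-ER cells at 0.246, 0.177 and 0.167 CPM and then 21.1, 29.5 and 31.7 CPM. At 24 h the MYC-ER libraries were above the parental ones and at 8 h far below them, and the difference in change was 7.34 (adjusted p = 6.08e-15). CDC25C, a phosphatase that starts mitosis (difference 6.55), NEURL1B, a ubiquitin ligase (6.19), and DLGAP5, a spindle protein (6.17), followed the same pattern, and none of the 4 was called in parental cells. In the other direction, CSF3, the granulocyte growth factor G-CSF, was at 31.9, 36.0 and 37.8 CPM at 8 h and 29.5, 31.6 and 27.9 CPM at 24 h in parental cells, and in MYC-ER cells at 95.8, 94.1 and 95.6 CPM and then 2.13, 2.12 and 1.77 CPM (difference -5.32, adjusted p = 1.59e-17). PLA2G4E, a cytosolic phospholipase, differed by -4.67 (adjusted p = 2.05e-12) and LCE3D, a cornified envelope protein, by -4.95 (adjusted p = 5e-13). SAA2-SAA4, a read-through of neighbouring genes whose reads overlap SAA2, was at 9.90 to 10.97 CPM at 8 h in MYC-ER cells and had no counts in 2 of the 3 libraries at 24 h.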

How the data were processed

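Poly(A)-selected, stranded RNA libraries were sequenced with 150-base paired-end reads, 3 libraries to a lane, per the labels' protocols; which libraries shared a lane is not given in the sources used here. The submitters' processing notes name Trimmomatic 0.39, STAR, StringTie 2.1.3b and GRCh38. The annotation and the use of strand are not given in the sources used here. The authors deposited whole-number counts per gene, not normalised. If StringTie derived them from coverage, a count is an estimate. Of 60668 genes, 60340 matched a symbol. Coordinates came from GENCODE 29 (GRCh38), as did length and GC content (98.04% of tested genes), and promoters from RefSeq.

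Counts of all 24 libraries were filtered with filterByExpr, given TMM factors and modelled with edgeR 4.0.16 under R 4.3.3, each group having its own mean. Quasi-likelihood tests were two-sided, with Benjamini-Hochberg adjustment over the 22158 genes tested and a threshold of 0.05. In simulated data with this design, 200 genes were changed and 21714 were tested. The fit recovered 78% of 1.5-fold and 98% of 2-fold changes and called 2 unchanged genes. With a length trend added to simulated data, 964 unchanged genes were called, and 9 after the trends were removed. Genes were drawn independently, without other shifts shared by a library, and the added trend is of the kind the correction removes. The simulations therefore do not show how many calls in the real libraries are false. Replicate libraries differed by more than sampling noise, with a chi-square per degree of freedom of 15.2 to 61.3. A gene with 0 counts could be present at up to 0.0200 CPM (3 counts in the smallest of the 6 libraries), for counting error only.

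Named genes were the 12 largest rises and 12 largest falls among called genes with at least 10 CPM, a proper symbol and replicates that did not overlap, members of the gene lists, MYC and ESR1, and the 4 largest differences between lines in each direction, for which the libraries of MYC-ER cells had to stand apart. A few genes that meet this rule are not reported here. The genes and the 45 lists were chosen with earlier results of these data known, so lists are described and not tested. The trend-corrected fit removes each library's lowess trends on GC content and transcript length (span 0.3) through offsets. Alternatives were other scalings, filters, DESeq2 1.42.0, other sets of libraries, the replicate block and leaving out each library. The 6-library fits with trends removed or with the block were added after the data had been seen.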

Additional observations from a re-analysis of the deposited data

Results flagged for a closer look

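The change from 8 to 24 h differed between parental and MYC-ER cells, by the test of the difference itself, for 10179 of 22158 genes. Differences are given as the MYC-ER log2 change minus the parental one. Among the largest parental falls they were -2.30 for KRT10, -2.40 for KRT16, -2.20 for SAA2 and -1.20 for MT1X, which fell further in MYC-ER cells. They were 1.92 for CHI3L1 and 1.24 for CSAD, which had positive changes there. The lines did not start from like levels at 8 h. CHI3L1 went from a mean of 0.361 to 0.725 CPM in MYC-ER cells and from 18.1 to 9.58 CPM in parental cells. KRT10 had 8 h means of 1049 CPM in MYC-ER cells and 339 CPM in parental cells. The copies NPIPB11 (0.86), NPIPB5 (0.65), NPIPB12 (0.69) and NPIPB3 (0.72) had changes near 0 in MYC-ER cells. Among the largest parental rises the difference was -4.02 for INHBA, -3.98 for DEPP1, -2.72 for AQP9, -2.45 for SERPINB2, -2.16 for EVI2B, -1.59 for PLD5, -1.49 for SMOC1, -1.02 for FGD4 and -0.81 for LOXL2, and it was 1.10 for VGLL3 and 0.77 for FAT4, which rose further in MYC-ER cells. Of the laminin, hemidesmosome and keratin genes, LAMB3 differed by -1.80, LAMA3 by -1.71, ITGA6 by -1.70, COL17A1 by -0.71, ITGB4 by -0.69 and KRT17 by -1.27, and DST by 1.08. The largest differences named were 7.34 for PIF1, 6.55 for CDC25C, 6.19 for NEURL1B and 6.17 for DLGAP5 in one direction and -6.59 for SAA2-SAA4, -5.32 for CSF3, -4.95 for LCE3D and -4.67 for PLA2G4E in the other.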

How the results depend on the processing

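The number of genes called was 2424, 4579 with only the 6 libraries compared (2603 higher, 1976 lower), 5161 without the parental 0 h group (2954 higher, 2207 lower, 193 at least 2-fold) and 3646 with DESeq2 (1609 lower). There were 630 lower calls without a filter on low counts and 1712 with only the 6 libraries and the trends removed. Leaving out 1 library gave 1008 to 1928 calls, 632 to 1234 higher, 376 to 694 lower and 62 to 109 at least 2-fold, the lowest without 8 h replicate 3 (without 24 h replicate 3 for 2-fold changes). It was 1365 without 24 h replicate 1, 1134 without 24 h replicate 3, 1193 without 8 h replicate 1 and 1574 without 8 h replicate 2. The cause of these shifts was not tested. Between the lines, library size alone gave 3356 lower differences. With the replicate number as a block, 2147 genes were called. Same-numbered libraries did not deviate together (correlations of -0.22, 0.07 and -0.20), so the numbers were not taken to pair the samples. Of the 110 genes followed through the alternatives, none changed sign with a call, 8 lost their call with the trends removed and 5 gained one, and 5 lost it without 24 h replicate 2 against 20 without 8 h replicate 1. FGD4 lost it with only the 6 libraries and the trends removed, and EVI2B without a filter, with the GC trend removed or with the block. FASN lost it with only the 6 libraries or with the block, and ITGB4 with the block or without a filter. With only the 6 libraries and the block together, MMP7, FASN and ITGB4 lost it. At these depths counting error is small for genes above 1 CPM, and the spread between 3 replicates limits the precision.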

Other observations

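Very long transcripts outside the hemidesmosome also kept part of their rise once the length trend was removed. AHNAK, a scaffold under the plasma membrane, rose from a mean of 1572 to 2163 CPM (log2 change 0.46, adjusted p = 0.00639, and 0.29 after correction, adjusted p = 0.00215). Of 23 junction genes 6 rose and 1 fell, and 6 rose and none fell after correction. TJP1, the tight junction protein ZO-1, rose from a mean of 64.4 to 86.0 CPM (log2 change 0.42, adjusted p = 0.00895). The desmosomal plaque protein DSP rose from 1524 to 1944 CPM (0.35, adjusted p = 0.0238), with 0.118 without 24 h replicate 3, 0.0945 without 8 h replicate 3, 0.0727 without 8 h replicate 1 and 0.0657 without 24 h replicate 1. The junction rises numbered 2 without 24 h replicate 3 or 8 h replicates 1 or 3, and 3 without 24 h replicate 1 or 8 h replicate 2. Among 34 splicing factors 5 fell and none rose, and 11 fell and 2 rose after correction. The falls numbered 1 without 8 h replicate 3, 2 without 24 h replicate 3 or 8 h replicate 1 and 3 without 24 h replicate 1. Of 14 Notch pathway genes tested, 1 rose (7.14%) and 2 fell (14.3%), against 6.48% and 4.46% of all genes tested, and 2 rose and 1 fell after correction. The receptor NOTCH2 rose from a mean of 139 to 186 CPM (log2 change 0.42, adjusted p = 0.0282), and missed the threshold without any 1 of 5 libraries, at 0.063 and 0.127 without 24 h replicates 1 and 3 and at 0.0844, 0.0558 and 0.107 without 8 h replicates 1, 2 and 3. The Notch target HES1 fell from 34.8 to 27.9 CPM (log2 change -0.32, adjusted p = 0.013), and missed it without 24 h replicate 3 (0.0653) or 8 h replicate 3 (0.0847). These 5 genes were chosen for naming after their values were seen, and all adjusted p-values are from edgeR's quasi-likelihood test.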
